A study of Mus musculus with 8 samples.

Results

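The collagen genes of the fasted female mouse liver were taken as the rows of the count table whose gene name is Col, a number, the letter a and a second number. This rule gave 44 of the 45706 genes of the table, and it used names only, with no measured value. They comprised 11 fibrillar collagens, 8 basement membrane collagens and 25 other collagens. The other collagens were 9 fibril-associated collagens (FACIT), 6 beaded filament chains of type VI, 4 transmembrane collagens and 6 network-forming, anchoring or remaining collagens. Bulk RNA sequencing compared 4 WT mice with 4 S155A mice, which carried the S155A change (serine to alanine) of the lipid droplet protein PLIN5 on both alleles. The change was introduced with CRISPR-Cas9 into the C57BL/6J background, so that it was present in the whole body and expressed from the gene's own promoter. All 8 mice were 4 months old females on regular chow whose livers were harvested after an overnight fast, and each gave 1 library from total liver RNA. The study asked what the loss of S155 phosphorylation does to liver gene expression. The collagens were not named in that question.

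Collagens are triple helices of 3 chains, and each chain is the product of its own gene. In the liver, the fibrillar types I, III and V form the interstitial fibrils of the portal tracts and the capsule, and they accumulate in fibrosis, mostly as products of activated stellate cells and portal fibroblasts. Type IV forms the sheet of basement membranes, types XV and XVIII sit in the basement membrane zone, and type XVIII is made in large amounts by hepatocytes. Type VI forms beaded microfilaments beside the fibrils, and the FACIT collagens decorate the surface of fibrils.

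The total estimated count per library lay between 39709785 and 54540864, and the 44 collagen genes together took between 0.113% and 0.148% of it. CPM is the usual depth-scaled count (library sizes scaled by the trimmed mean of M values, TMM). Plin5 itself was at 205.9 ± 32.3 CPM in WT mice and 327.8 ± 117.5 CPM in S155A mice (SD, n = 4 each, log2 fold change 0.67, edgeR adjusted p = 0.993), which does not check the edited codon. The labels name hepatocytes as the cell type, but markers of other cells were present in every library. The summed CPM of 10 stellate cell markers was 156.5 to 221.5 in WT and 96.8 to 179.2 in S155A mice, and that of 8 endothelial markers was 157.8 to 229.3 and 127.9 to 179.5. The libraries were therefore read as whole liver. WT mouse 2 stood apart with 31.0 CPM over 8 pancreatic acinar markers, against at most 0.612 CPM in the other mice. S155A mouse 3 stood apart with 97.1 CPM over 8 lymphocyte markers, against 5.61 to 12.9 in the other mice. Animal numbers in the labels fell into 2 series, one under 200 (mice 1 and 4 of either genotype) and one over 800 (mice 2 and 3).

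Of the 44 collagen genes, 30 had enough counts to be tested (9 fibrillar, 8 basement membrane and 13 other), and 14 fell below the filter. No collagen gene passed an adjusted p of 0.05 in edgeR's quasi-likelihood test, as was so for 0.0% of the 14629 genes tested. DESeq2 also called no collagen gene, while it called 6 of 14603 genes (0.0411%), and its smallest adjusted p for a collagen was 0.116. At an unadjusted p under 0.05, Col4a5 and Col5a1 were lower in S155A mice (2 of 30, against 1.98% of all genes tested). Only Col20a1 was higher (1 of 30, against 1.42%). The WT and S155A mice did not overlap for 2 collagens that were lower in S155A mice, Col4a5 and Col13a1 (1.36% of all genes), and for 0 that were higher (0.943%). The number at an unadjusted p under 0.05 depended on single mice. It was 8 without WT mouse 1 and 7 without S155A mouse 3, and 2 without any one of WT mouse 2, WT mouse 4 and S155A mouse 2. Over all genes tested, the number was 497 with all mice, and 666, 362, 684, 458 and 370 in these 5 settings in the order given.

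The estimates leaned to one side without passing the test. The log2 fold change of S155A against WT was below 0 for 23 of 30 collagens, against 51.2% of all genes tested. The median over the 30 collagens was -0.32, with a range from -1.18 to 1.18, while the median over all genes tested was -0.0050. The median was -0.33 for the 9 fibrillar collagens, of which 8 were below 0. It was -0.32 for the 8 basement membrane collagens, of which 7 were below 0, and -0.27 for the 13 other collagens, of which 8 were below 0. All 30 genes were read from the same 8 livers, so these counts are a description and were not tested.

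**Figure D1:**
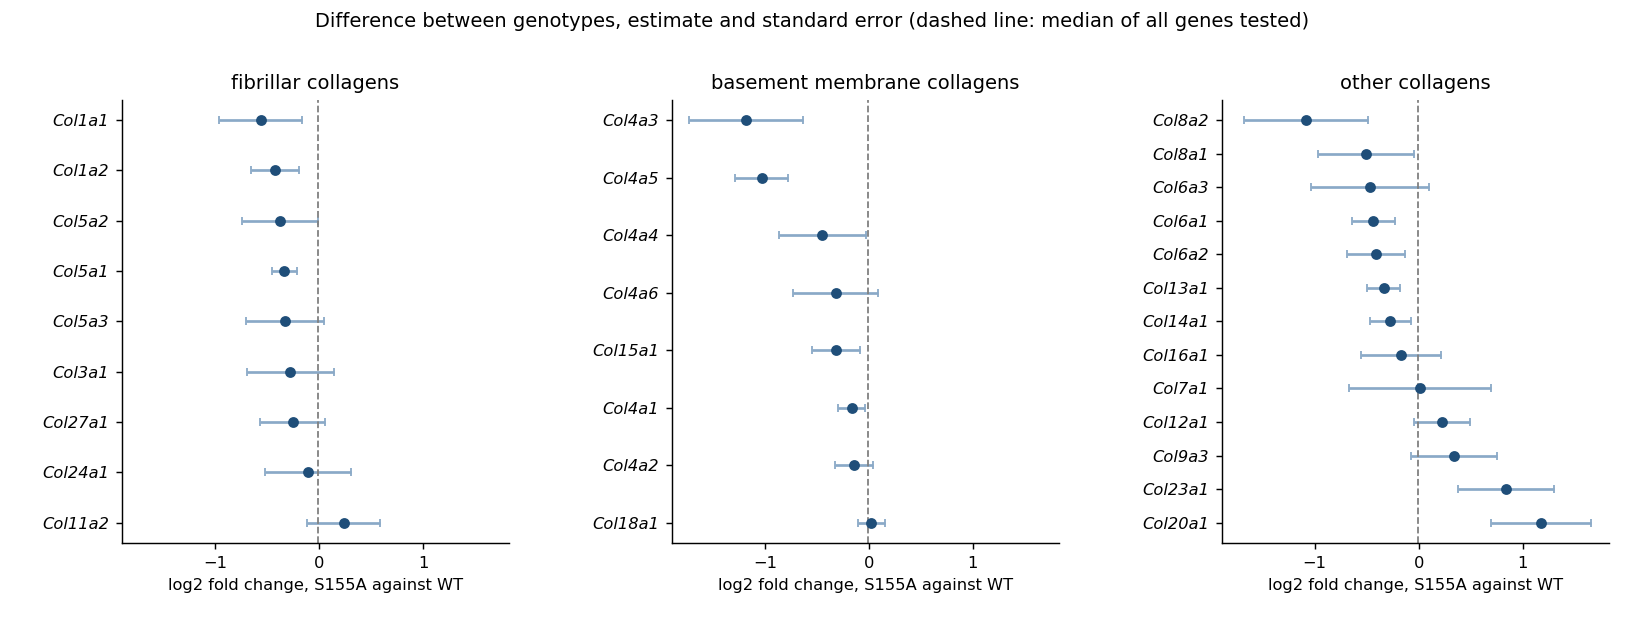
Log2 fold change of S155A against WT (x axis, with its standard error as the bar) for each of the 30 tested collagen genes (y axis), in 3 panels by class, with the median of all genes tested as a dashed line. In the fibrillar panel 8 of 9 estimates lie below 0, and the bars of most genes in all panels are long relative to the estimate.

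The fibrillar collagens were expressed at modest levels that varied widely between mice. Per kb of merged exon length, the order of the 9 tested genes, from the highest mean level, was Col5a3, Col3a1, Col5a1, Col27a1, Col1a2, Col1a1, Col11a2, Col5a2 and Col24a1. The means over 8 mice ranged from 4.42 CPM per kb for Col5a3 to 0.0676 CPM per kb for Col24a1. With the length of the longest transcript in place of merged exons, Col1a2 moved up to the third place and Col5a1 down to the fifth. Col1a1 and Col1a2 together encode type I collagen, the main fibril of scar tissue, and they stood below Col5a3 and Col3a1 in these livers by either length.

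Col5a3, which encodes a minor chain of type V collagen, was at 37.5, 25.1, 46.5 and 25.0 CPM in WT mice 1 to 4 and at 47.5, 22.9, 11.3 and 25.2 CPM in S155A mice 1 to 4. The highest and the lowest values were both in S155A mice, and the log2 fold change was -0.33 (SE 0.374, adjusted p = 0.993). It was -0.76 without S155A mouse 1 and -0.073 without S155A mouse 3. Col3a1, the chain of type III collagen of the reticular fibers, was at 9.66, 24.4, 27.3 and 18.0 CPM in WT mice and at 13.01, 8.25, 31.7 and 12.8 CPM in S155A mice. For this gene S155A mouse 3 was the highest of all 8 and S155A mouse 2 the lowest, and the log2 fold change was -0.27 (SE 0.418, adjusted p = 0.993). Without S155A mouse 3 it was -0.80, and without S155A mouse 2 it was -0.046.

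Col5a1 encodes the chain of type V collagen that nucleates fibrils, and it varied least among the fibrillar collagens with over 10 CPM. It was at 12.55, 14.2, 14.1 and 14.8 CPM in WT mice and at 12.7, 9.51, 10.8 and 11.2 CPM in S155A mice. The means were 13.9 ± 0.958 and 11.1 ± 1.31 CPM (SD, n = 4 each). S155A mice 2, 3 and 4 lay below all WT mice, and S155A mouse 1 lay just above WT mouse 1. The log2 fold change was -0.33 (SE 0.121), with an edgeR unadjusted p of 0.0210 and an adjusted p of 0.993, and the two-sided exact permutation p was 0.0571, where the smallest that 4 against 4 mice can give is 0.0286. Without WT mouse 4 or S155A mouse 2, the unadjusted p was no longer under 0.05. The gene lies at chr2:27886425-28039514 on the forward strand (GRCm38).

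Type I collagen showed lower means in S155A mice with wide spreads. Col1a2 was at 8.02, 15.5, 15.6 and 15.5 CPM in WT mice and at 9.01, 8.11, 13.2 and 10.3 CPM in S155A mice (log2 fold change -0.42, SE 0.232, adjusted p = 0.993). WT mice 2, 3 and 4 were above all S155A mice, and WT mouse 1 was the lowest of all 8. Col1a1 was at 2.39, 11.0, 6.51 and 6.55 CPM in WT mice and at 4.52, 3.39, 6.60 and 3.44 CPM in S155A mice (log2 fold change -0.56, SE 0.399, adjusted p = 0.993). The same WT mouse 1 was again the lowest. With all mice neither gene had an unadjusted p under 0.05. Both did without WT mouse 1, and Col1a2 also did without S155A mouse 3.

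The remaining fibrillar collagens were Col27a1 (6.79 to 20.2 CPM in WT, 9.70 to 15.2 in S155A), Col5a2 (2.09 to 5.58 and 1.49 to 3.99), Col11a2 (1.43 to 2.83 and 1.88 to 4.70) and Col24a1 (0.504 to 0.590 and 0.211 to 0.779). Each overlapped between the genotypes. Col11a2, a chain best known from cartilage, was the only tested fibrillar collagen with an estimate above 0 (0.24), and it was at -0.17 without S155A mouse 3. Col2a1 and Col11a1, the other main cartilage chains, were not detectable at this depth: Col2a1 had 1 count in 1 mouse and Col11a1 had 0 counts in all 8.

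**Figure D2:**
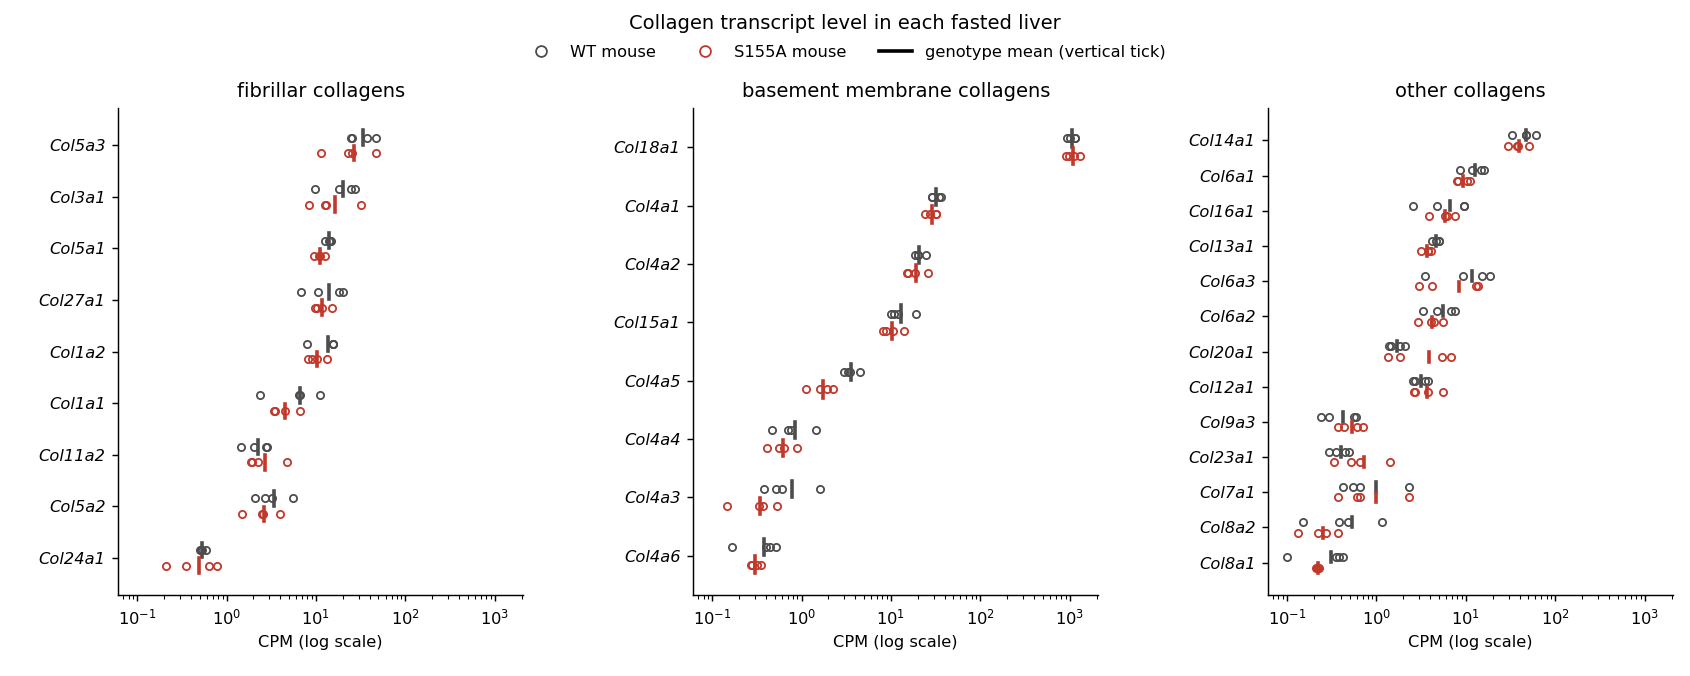
CPM of each tested collagen gene (x axis, log scale) in each of the 8 mice, grey for WT and red for S155A, with genotype means as vertical ticks, in 3 panels by class and ordered by level per kb. Col18a1 lies between 916.4 and 1296 CPM in all mice, and Col4a5 and Col13a1 show no overlap between grey and red points.

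Summed over the 9 tested fibrillar genes, the level was 107.7 ± 24.3 CPM in WT mice (81.5 to 137.8) and 86.3 ± 16.1 CPM in S155A mice (67.8 to 101.6). The ranges overlapped. Within the WT mice, mouse 1 was lowest, with a median log2 deviation of -0.42 from the mean of the 8 mice over the 9 genes, and mouse 3 was highest at 0.44. Within the S155A mice, mouse 2 was lowest at -0.43 and mouse 3 highest at 0.33. The spread among mice of 1 genotype was thus wider than the median difference between genotypes. The class median was -0.080 without WT mouse 3 and -0.20 without WT mouse 2.

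Pairs of fibrillar chains, of the same or of different types, were compared as ratios within a mouse, each on counts per kb. The ratio of Col1a1 to Col1a2 was 0.564 to 1.34 in WT mice and 0.631 to 0.951 in S155A mice, a difference of -0.025 on the log2 scale. The log2 ratio varied with an SD of 0.385 over the 8 mice, less than that of Col1a1 (0.709) or Col1a2 (0.427) alone. The ratio of Col3a1 to Col1a2 was 1.47 to 2.22 and 1.29 to 3.03, with a difference of 0.043 on the log2 scale. The log2 ratio of Col5a1 to Col5a2 varied with an SD of 0.502, between that of Col5a1 alone (0.222) and that of Col5a2 alone (0.579).

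The basement membrane collagens were dominated by Col18a1. Its level per kb was 152.0 CPM averaged over 8 mice, against 4.10 for Col4a1, 3.001 for Col4a2, 1.83 for Col15a1, 0.394 for Col4a5, 0.0693 for Col4a4, 0.0563 for Col4a3 and 0.0429 for Col4a6. This order was the same with the longest transcript. Col18a1, which encodes a proteoglycan-type collagen whose end fragment is endostatin, took between 76.4% and 87.0% of all collagen counts of a library. It was at 938.7, 1149, 1005 and 1137 CPM in WT mice and at 916.4, 1296, 1106 and 987.5 CPM in S155A mice. The genotypes overlapped fully, and the log2 fold change was 0.026 (SE 0.132, adjusted p = 0.998). Its sign turned to -0.021 when libraries were scaled by library size alone.

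Col4a1 and Col4a2 encode the 2 chains of the common type IV collagen, and their genes lie head to head on chromosome 8 with starts 21 bases apart. Col4a1 was at 29.0, 34.9, 28.9 and 36.6 CPM in WT mice and at 31.7, 23.9, 32.0 and 27.7 CPM in S155A mice (log2 fold change -0.17, SE 0.129, adjusted p = 0.993). Col4a2 was at 19.9, 24.9, 20.02 and 18.5 CPM in WT mice and at 15.6, 18.7, 26.2 and 15.0 CPM in S155A mice (log2 fold change -0.14, SE 0.183, adjusted p = 0.993). Both genes overlapped between genotypes. Col4a1 was at -0.079 without S155A mouse 2. Col4a2 was at -0.045 without WT mouse 2 and at -0.34 without S155A mouse 3, where its unadjusted p was under 0.05. Their ratio per kb was 1.24 to 1.75 in WT mice and 1.08 to 1.80 in S155A mice, and its mean differed by only 0.0017 on the log2 scale. Their first exons overlap on opposite strands, and the sources used here do not give a strand setting for the counting.

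Col4a5 had the smallest p of any collagen. It encodes the alpha 5 chain of type IV collagen, known from the kidney glomerulus, where it joins the alpha 3 and alpha 4 chains, and from Alport syndrome. It was at 3.002, 3.47, 3.28 and 4.46 CPM in WT mice and at 1.59, 2.27, 1.14 and 1.94 CPM in S155A mice. All 4 S155A mice lay below all 4 WT mice, and the means were 3.55 ± 0.634 and 1.74 ± 0.487 CPM (SD, n = 4 each). The log2 fold change was -1.03 (SE 0.254), with an edgeR unadjusted p of 0.00230, rank 13 of 14629 genes, and an adjusted p of 0.993. DESeq2 gave an adjusted p of 0.116. The two-sided exact permutation p was 0.0286, the smallest that 4 against 4 mice can give, and the lack of overlap alone sets it. In log2 CPM, with 2 mice per genotype, it was -1.04 among animal numbers under 200 and -1.05 among those over 800. Over the 19 alternatives it ran from -1.18 to -0.88, and the unadjusted p stayed under 0.05 in each, while no adjusted p passed. Between 43 and 226 counts per library lie behind these values, and 1 annotated gene on each strand (Gm15268 and Gm15282) overlaps Col4a5.

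Col4a5 was set against Col4a1, the main type IV chain, which varied little (SD 0.196 on the log2 scale over 8 mice, against 0.655 for Col4a5). The ratio of Col4a5 to Col4a1 per kb was 0.110 to 0.136 in WT mice and 0.0394 to 0.106 in S155A mice, again with no overlap. That ratio largely repeats the separation of Col4a5 itself. Col4a6 lies head to head with Col4a5 on the X chromosome, with 1309 bases between the starts, and its chain joins alpha 5 in some basement membranes. Col4a6 was low, at 0.168 to 0.513 CPM in WT and 0.269 to 0.352 CPM in S155A mice, and its log2 fold change was -0.32 (SE 0.409, adjusted p = 0.993). The ratio of Col4a5 to Col4a6 per kb overlapped, at 9.39 to 21.2 in WT and 4.25 to 10.04 in S155A mice. At 9 to 26 counts per library, a difference of the size seen for Col4a5 could be missed for Col4a6. Col4a3 and Col4a4, a further head-to-head pair with 72 bases between the starts, were at 0.379 to 1.62 and 0.463 to 1.46 CPM in WT mice and at 0.145 to 0.528 and 0.408 to 0.898 CPM in S155A mice. Their log2 fold changes were -1.18 (SE 0.547) and -0.45 (SE 0.417), both with an adjusted p of 0.993. WT mouse 4 was the highest for both, and without it the values were -0.54 and -0.049.

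The sequences before the starts of Col4a5 and Col4a6 are shown because the pair shares 1 intergenic stretch while only Col4a5 separated the genotypes. The other 2 are those of Col5a1, the fibrillar collagen nearest to separation, and Col13a1, the only gene of the other class whose genotypes did not overlap. Each is the last 100 bases before the RefSeq start (GRCm38.p6) that no annotated exon covers, read 5′ to 3′ along the gene's own strand. Capitals mark GGGCGG or its reverse complement CCGCCC, the core of the GC box. The CCAAT box and the TATA box (searched as TATAAA) were looked for on both strands too and are not in these windows.
Col4a5 (chrX:141475285-141475384, forward strand, 34 bases from the RefSeq start): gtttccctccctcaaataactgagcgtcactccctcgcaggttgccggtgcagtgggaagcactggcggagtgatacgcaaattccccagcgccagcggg
Col4a6 (chrX:141474077-141474176, reverse strand): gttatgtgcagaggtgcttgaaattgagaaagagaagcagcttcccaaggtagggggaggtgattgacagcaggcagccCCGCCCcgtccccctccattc
Col5a1 (chr2:27886325-27886424, forward strand): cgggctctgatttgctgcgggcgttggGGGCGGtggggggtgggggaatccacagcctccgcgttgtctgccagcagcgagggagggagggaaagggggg
Col13a1 (chr10:61979109-61979208, reverse strand): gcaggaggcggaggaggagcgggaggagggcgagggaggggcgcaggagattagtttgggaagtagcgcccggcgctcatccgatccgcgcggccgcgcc
The Col4a6 and Col5a1 windows hold 1 GC box core each, and those of Col4a5 and Col13a1 hold none. The Col4a5 window ends 34 bases before the RefSeq start, and the 100 bases directly before that start do hold a GC box core, as they do for Col4a6. The share of G and C was 61.0% for Col4a5, 57.0% for Col4a6, 71.0% for Col5a1 and 73.0% for Col13a1. In the 100 bases directly before the RefSeq start, exons included, GGGCGG or its complement occurred in 18 of 38 collagen windows and in 24.7% of all 32851 windows. The shares over all windows were 18.9% for CCAAT and 5.56% for TATAAA, and 4 and 2 of the 38 collagen windows held them. The search read letters only and says nothing of factors that bind there.

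Col15a1, the second collagen of the basement membrane zone, was at 10.1 to 18.9 CPM in WT mice and at 8.11 to 13.9 CPM in S155A mice (log2 fold change -0.32, SE 0.233, adjusted p = 0.993). Without WT mouse 3 it was -0.077. Summed over the class, the 8 basement membrane genes were at 1129 ± 107.9 CPM in WT and 1138 ± 168.1 CPM in S155A mice, a sum that Col18a1 sets. Without Col18a1, the sum of the other 7 was 71.7 ± 5.63 CPM in WT mice (63.5 to 75.7) and 61.1 ± 7.51 CPM in S155A mice (54.0 to 71.7). S155A mouse 3 alone reached the WT range. WT mouse 4 was the highest of all mice for 5 of the 8 genes, and the class median was -0.17 without it.

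**Figure D3:**
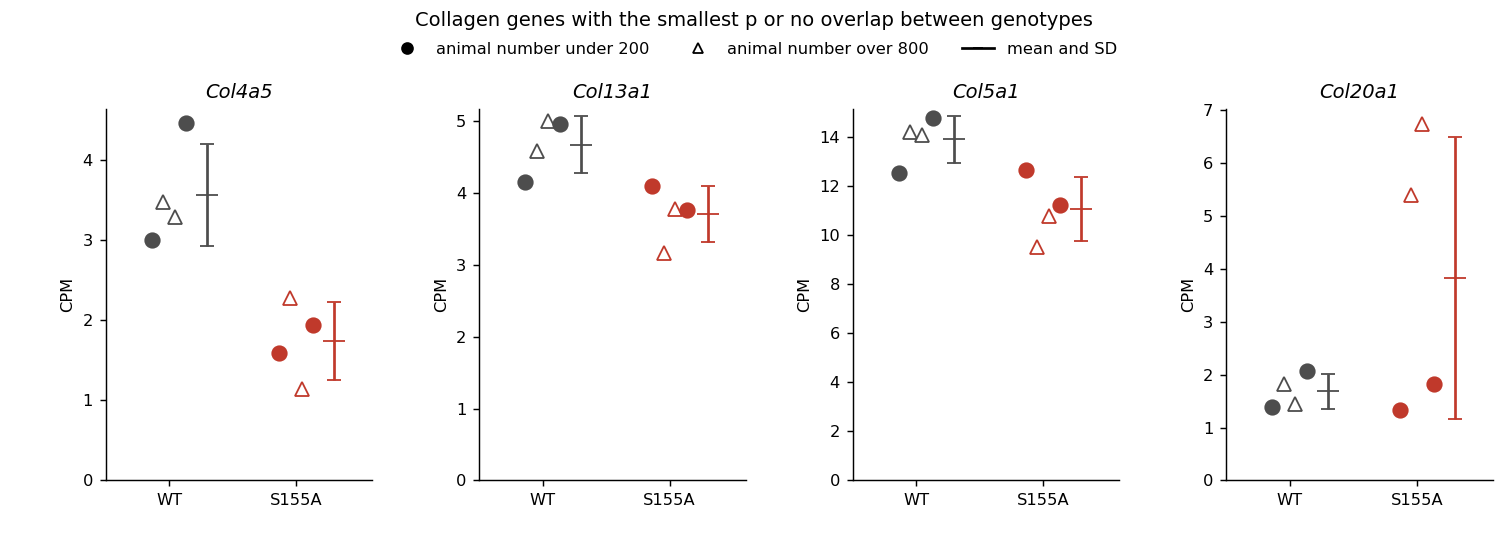
CPM (y axis, from 0) of Col4a5, Col13a1, Col5a1 and Col20a1 in each WT and S155A mouse, with filled circles for animal numbers under 200, open triangles for those over 800, and the mean with SD beside each group. Col4a5 separates the genotypes by the widest margin, and Col20a1 is high in only 2 S155A mice, both with numbers over 800.

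Among the other collagens, Col14a1 stood highest per kb at 6.11 CPM, followed by Col6a1 at 2.51 and Col16a1 at 0.919. Col13a1 was at 0.908, and by the longest transcript it stood above Col16a1. Col14a1, a FACIT collagen of the fibril surface, was at 33.1, 47.3, 46.7 and 60.7 CPM in WT mice and at 37.0, 29.9, 50.4 and 37.9 CPM in S155A mice. Only WT mouse 4 exceeded all S155A mice, and the log2 fold change was -0.27 (SE 0.198, adjusted p = 0.993), or -0.13 without that mouse. The class median of the other collagens was -0.13 without it too, and -0.18 without S155A mouse 2. Col16a1, another FACIT collagen, was at 2.57, 4.78, 9.43 and 9.47 CPM in WT mice and at 3.87, 6.08, 7.58 and 5.83 CPM in S155A mice. WT mice held both the lowest and the highest values, and the log2 fold change was -0.17 (SE 0.382, adjusted p = 0.996).

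The 3 tested chains of type VI collagen had similar estimates with all mice. Col6a1 was at 8.54, 15.8, 11.6 and 14.7 CPM in WT mice and at 7.88, 8.23, 11.0 and 10.3 CPM in S155A mice (log2 fold change -0.43, SE 0.203, unadjusted p 0.0577 and adjusted p = 0.993 in edgeR). WT mice 2, 3 and 4 lay above all S155A mice, and WT mouse 1 lay among them. Col6a2 had a log2 fold change of -0.41 (SE 0.283) and Col6a3 one of -0.47 (SE 0.569). Col6a3 was the most variable of the 3, at 3.49, 18.8, 15.1 and 9.24 CPM in WT mice and at 4.21, 3.02, 13.6 and 12.9 CPM in S155A mice, with low and high mice in both genotypes. Its estimate was -0.14 without WT mouse 2 and -0.79 without S155A mouse 3. Col6a1 and Col6a2, neighbours on chromosome 10, kept a ratio per kb of 3.69 to 4.89 in WT and 3.71 to 5.33 in S155A mice. That of Col6a3 to Col6a1 ran from 0.149 to 0.479 and from 0.134 to 0.456. Summed over the 3 genes, the level was 29.9 ± 10.8 CPM in WT and 22.0 ± 8.04 CPM in S155A mice.

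Col13a1, a transmembrane collagen known from the neuromuscular junction, was at 4.14, 4.58, 4.99 and 4.95 CPM in WT mice and at 4.10, 3.16, 3.77 and 3.76 CPM in S155A mice. All S155A mice lay below all WT mice, but S155A mouse 1 and WT mouse 1 were nearly equal. The log2 fold change was -0.34 (SE 0.160), with an edgeR unadjusted p of 0.0627 and an adjusted p of 0.993, and the two-sided exact permutation p was 0.0286. Any gene without overlap gets that permutation p, so it adds nothing to the lack of overlap. With scaling by library size alone, 1 collagen was left without overlap in place of 2. Without WT mouse 1, 7 collagens did not overlap. Fewer mice separate more easily, and the share over all genes was not computed for these settings.

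Col20a1 was the only collagen that was higher in S155A mice at an unadjusted p under 0.05. This FACIT collagen was at 1.38, 1.81, 1.45 and 2.07 CPM in WT mice and at 1.33, 5.40, 6.73 and 1.82 CPM in S155A mice. Both S155A mice with animal numbers over 800 were above all WT mice, and the other 2 S155A mice lay below the highest WT mouse. The log2 fold change was 1.18 (SE 0.480), with an edgeR unadjusted p of 0.0337 and an adjusted p of 0.993, and the two-sided exact permutation p was 0.314. The same 2 mice had the highest summed CPM of 6 hepatocyte markers (119900 and 125000, against 86850 to 106000 in the other 6 mice), and their part in the result was not tested. The unadjusted p was 0.154 in limma-voom, and in edgeR it was not under 0.05 without any one of WT mice 1, 2 and 3 or S155A mice 2 and 3. Nor was it with the animal number series as a term or with a replicate block, where the log2 fold change was 0.90 in both. A transcript annotated on the same strand overlaps Col20a1, and reads of the 2 could be divided between them.

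The remaining tested members overlapped between genotypes. Col23a1 and Col9a3 had estimates of 0.84 (SE 0.464) and 0.34 (SE 0.413), Col12a1 one of 0.22 (SE 0.272) and Col7a1, the anchoring fibril collagen of skin, one of 0.012 (SE 0.685). Col8a1 and Col8a2, the chains of a hexagonal network around vessels, had estimates of -0.50 (SE 0.464) and -1.08 (SE 0.598). Each of the last 2 had as few as 5 counts in a library. The 14 collagens below the filter were Col2a1, Col11a1 and 12 of the other class. Col10a1, Col19a1, Col26a1 and Col9a1 had 0 counts in all mice, and Col9a2, Col6a4, Col6a5, Col6a6, Col17a1, Col25a1 and Col28a1 stayed at 37 counts or fewer. Col22a1, a FACIT collagen of tissue junctions, reached 0.964 CPM in S155A mouse 1 and 1.505 CPM in S155A mouse 3, and was at 0.0827 CPM or less in the other 6 mice.

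Within the 2 animal number series, 14 of the 30 collagens were lower in S155A mice in both series, against 23.4% of all genes tested. Only 2 of the 30 were higher in both, against 21.7% of all genes tested. Among animal numbers under 200 the median log2 difference was -0.0054 for the fibrillar, -0.35 for the basement membrane and -0.12 for the other collagens. Among those over 800 it was -0.67, -0.21 and -0.27. Each value rests on 2 mice per genotype. Of the WT mice, the 2 with numbers over 800 were the highest by summed level of the fibrillar collagens. The interaction of genotype with series was called for 0 collagens (0.0% of all genes tested) at an adjusted p under 0.05. At an unadjusted p under 0.05 it was met by 1 collagen, Col20a1, against 11.1% of all genes tested, with a log2 difference between series of 2.02 (SE 0.476, edgeR adjusted p = 0.262). When no filter on low counts was used, edgeR called the interaction for 3 collagens, Col20a1, Col5a3 and Col6a3, and for 3.41% of 22439 genes.

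**Figure D4:**
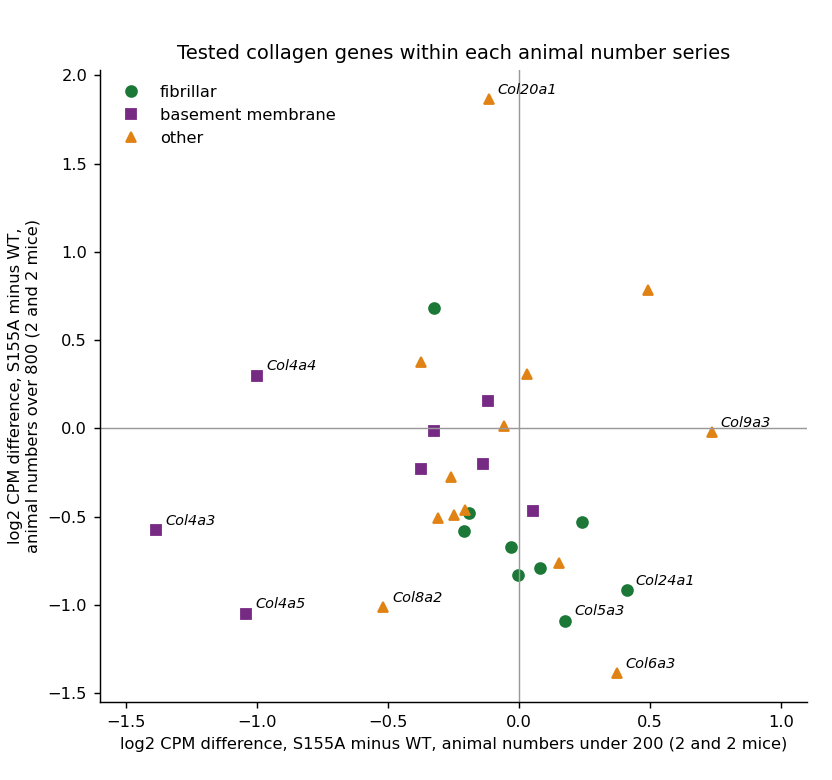
Difference in log2 CPM between S155A and WT mice within the animal numbers under 200 (x axis) and over 800 (y axis) for the 30 tested collagen genes, with 2 mice per genotype in each series and symbols by class. Col4a5 is near -1 on both axes, 8 of 9 fibrillar collagens are negative on the y axis, and Col20a1 is high on the y axis only.

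Genes that modify, cross-link, degrade or bind collagen were described beside the collagens themselves. Of 93 genes on 7 lists, 92 were found in the table and 79 were tested, and none passed an adjusted p of 0.05. The estimate was below 0 for 55 and above 0 for 24 of them, with a median of -0.13, while 51.2% of all genes tested were below 0. The 17 tested genes of collagen modification and folding had a median of -0.14 (12 below 0). Serpinh1, the collagen chaperone HSP47, was at 5.95, 14.1, 6.57 and 7.56 CPM in WT mice and at 5.58, 7.32, 12.9 and 7.93 CPM in S155A mice (log2 fold change -0.020, SE 0.319). P4ha1, a catalytic subunit of prolyl 4-hydroxylase, was at 14.8, 16.0, 10.2 and 6.55 CPM in WT mice and at 10.4, 10.3, 9.19 and 8.997 CPM in S155A mice (log2 fold change -0.29, SE 0.245). Neither separated the genotypes.

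The 11 tested genes of propeptide cleavage and cross-linking had a median of -0.075. Lox, which starts the cross-linking of fibrils, was at 0.455 CPM or less in all mice. Among the 7 tested genes of degradation, with a median of -0.19, Mmp14, a membrane-bound collagenase, was at 64.2 to 84.8 CPM in WT and 66.0 to 82.8 CPM in S155A mice (log2 fold change 0.045, SE 0.119). Timp1, an inhibitor of collagenases that rises in fibrosis, had 5 to 13 counts per library and fell below the filter.

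All 6 tested collagen receptors had estimates below 0 (51.2% of all genes did), with a median of -0.21. Itga1, the integrin chain that binds collagen together with Itgb1, was at 13.5, 11.1, 10.1 and 12.9 CPM in WT mice and at 8.49, 8.73, 9.66 and 10.5 CPM in S155A mice. The groups overlapped in 1 pair of mice, and the log2 fold change was -0.35 (SE 0.136, edgeR unadjusted p 0.0284, adjusted p = 0.993). The 14 tested genes of TGF-beta signalling, the main profibrotic pathway, had a median of -0.24. Tgfb1 was at 4.47 to 8.51 CPM in WT and 6.49 to 7.998 CPM in S155A mice (log2 fold change 0.14, SE 0.195). Tgfb2 was at 0.280, 0.359, 0.695 and 2.17 CPM in WT mice and at 0.185, 0.310, 0.370 and 0.316 CPM in S155A mice, and its log2 fold change of -1.57 (SE 0.644, edgeR unadjusted p 0.0351, adjusted p = 0.993) was -0.59 without WT mouse 4.

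The 10 basement membrane partners had a median of -0.021, with members on both sides. Lama5, the alpha 5 chain of laminin, was the only one of the 79 related genes whose genotypes did not overlap, where 0.943% of all genes were higher without overlap and 1.36% lower. It was at 8.50, 4.33, 4.70 and 7.56 CPM in WT mice and at 8.79, 11.1, 14.6 and 11.9 CPM in S155A mice. All S155A mice lay above all WT mice, although S155A mouse 1 was close to WT mouse 1. The log2 fold change was 0.88 (SE 0.245, edgeR unadjusted p 0.00483, adjusted p = 0.993). Nid1, which links laminin to type IV collagen, went the other way, at 12.0, 11.9, 13.8 and 18.3 CPM in WT mice and 12.7, 8.31, 10.6 and 10.4 CPM in S155A mice (log2 fold change -0.41, SE 0.178, edgeR unadjusted p 0.0427, adjusted p = 0.993). The 14 tested interstitial matrix partners had a median of -0.15.

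Markers of other liver cells differed in both directions. Of 10 stellate cell markers, 9 had estimates below 0, with a median of -0.25, and of 8 endothelial markers 6 did, with a median of -0.20. S155A mouse 2, which was lowest for the fibrillar and type VI collagens, was also the lowest for both marker lists, at 96.8 and 127.9 CPM. WT mouse 4, highest in 5 basement membrane collagens, was the highest for both, at 221.5 and 229.3 CPM. Other mice did not keep this order. WT mouse 3, highest for the fibrillar sum (137.8 CPM), had 175.2 CPM of stellate markers. S155A mouse 1 exceeded S155A mouse 4 in the fibrillar sum (101.6 and 78.3 CPM) but not in stellate markers (136.3 and 176.3 CPM). Estimates were above 0 for 3 of 4 smooth muscle markers (median 0.34), 6 of 6 Kupffer cell markers (median 0.20), 8 of 8 lymphocyte markers (median 0.72) and 5 of 6 hepatocyte markers (median 0.11). They were above 0 for 3 of 7 markers of portal fibroblasts and mesothelium (median -0.12) and for 1 of 5 cholangiocyte markers (median -0.23). Over all genes tested, 51.2% of estimates were below 0. In the lower and the higher animal number series, the median log2 difference was -0.49 and 0.83 for Kupffer cell markers. It was 0.90 and -0.50 for smooth muscle, 0.14 and 0.998 for lymphocyte and -0.097 and 0.32 for hepatocyte markers. S155A mouse 3 alone had a high lymphocyte sum (97.1 CPM, against 8.85 to 10.1 CPM in the other S155A mice). The smooth muscle list had sums of 11.4 to 19.0 CPM in WT and 10.9 to 24.5 CPM in S155A mice. The list for portal fibroblasts and mesothelium had sums of 7.96 to 15.0 and 8.93 to 14.0 CPM, the cholangiocyte list 27.2 to 85.5 and 36.7 to 44.0 CPM, and the Kupffer cell list 176.0 to 365.5 and 191.7 to 380.5 CPM. In bulk liver RNA, fewer cells of a type and less RNA per cell cannot be told apart, and the part of these cells in the collagen values was not tested.

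**Figure D5:**
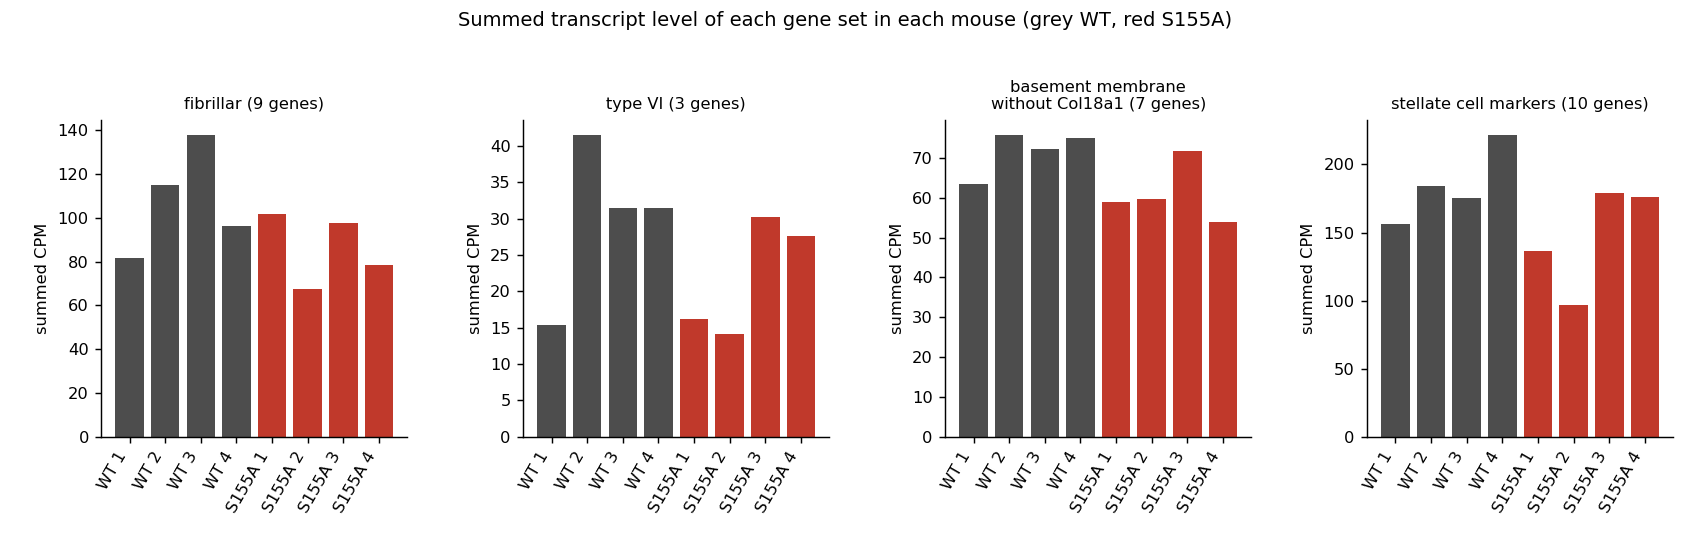
Summed CPM (y axis, from 0) of the 9 tested fibrillar collagens, the 3 tested type VI chains, the 7 basement membrane collagens other than Col18a1 and the 10 stellate cell markers in each mouse, grey for WT and red for S155A. S155A mouse 2 is lowest in the fibrillar, type VI and stellate panels, and the genotypes overlap in every panel.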

How the data were processed

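Bulk RNA sequencing of the liver of 4 WT and 4 S155A mice was analysed, each library being 1 mouse. What the authors deposited were estimated counts for each gene, which the table's name credits to salmon with length scaling, and which were not normalized for library size. The submitters' processing notes name bcl2fastq, STAR, SAMtools, MultiQC, DESeq2 and GRCm38, without versions, and the annotation and use of strand are not given in the sources used here. Length scaling can move a count when the isoform mix varies, and a model divided the reads of overlapping or near-identical genes. Columns were matched to mice by animal number, and 0 columns were left unmapped.

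Estimated counts were rounded. The 14629 of 45706 genes kept by filterByExpr were tested with the quasi-likelihood test of edgeR 4.0.16 (R 4.3.3) on all 8 mice, without a block, after TMM normalization and with Benjamini-Hochberg adjustment over all genes tested. Log2 CPM used a prior count of 2. Single genes were also tested by a two-sided exact permutation test. P-values judge the difference between genotypes against the spread between these mice. Named members were the 3 of each class with the highest CPM per kb of merged exon length, those at an unadjusted p under 0.05 and those without overlap between genotypes. Of the related lists they were Serpinh1, P4ha1, Lox, Mmp14, Timp1 and Tgfb1, and genes at an unadjusted p under 0.05. Other members were described after their values were seen. The members, lists and rules were chosen with earlier results of these data known.

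Coordinates are from GENCODE M21 (GRCm38), which held 45143 of the gene identifiers, and promoter sequences are from RefSeq (GRCm38.p6), which held 35 of the 44 collagens. Of these, 28 had 100 bases free of exons. No 2 libraries were copies: the chi-square per gene of the closest pair was 40.2. On simulated counts of 14629 genes for this comparison, edgeR called 27 of 50 genes changed 2-fold, 47 of 50 changed 4-fold and 10 of 14429 unchanged genes. The simulation held 50 genes at each of 1.5-, 2-, 4- and 8-fold, which eases the adjustment for multiple tests. The smallest edgeR adjusted p in the data was 0.758, so these shares may be too high for a 2-fold change here. The alternatives were DESeq2 1.42.0, limma-voom (limma 3.58.1), 2 other scalings, a robust fit, 3 other filters, a replicate block, the animal number series as a term and leaving out each mouse.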

Additional observations from a re-analysis of the deposited data

Results flagged for a closer look

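No mouse lay far enough from the other 3 of its genotype to pass Dixon's 95% critical value in any of the 24 groups tested (the 12 named collagens in WT and in S155A mice), where chance alone gives about 1.2 in 24. Other collagens were not checked in this way. Col1a2 is 1 of these, with WT mouse 1 at 8.02 CPM and the other WT mice at 15.5 to 15.6 CPM.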

How the results depend on the processing

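Of 21 named results (the log2 fold changes of 12 collagens and 9 related genes), 16 kept their sign under every one of the 19 alternatives that gave a value, and no collagen passed an adjusted p of 0.05 under any of them. The count of collagens at an unadjusted p under 0.05, 3 in the main test, was 5 with DESeq2, 6 without a filter on low counts and 2 to 8 when 1 mouse was left out. Over all genes tested, the number was 497 in the main test, 594 with DESeq2 and 851 without a filter. It was 357 to 894 when 1 mouse was left out. The count without overlap, 2 in the main test, was 1 with library size alone and 2 to 7 when 1 mouse was left out. The share of all genes without overlap was not computed for these alternatives. The interaction with the animal number series, called for 0 collagens, was called for 3 without a filter on low counts and for 0 with any 1 mouse left out, and the cause was not tested. The class medians ran from -0.48 to -0.080 (fibrillar), from -0.45 to -0.17 (basement membrane) and from -0.41 to -0.13 (other) when 1 mouse was left out.

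Signs turned for 5 genes. Col18a1 (0.026) was at -0.021 with library size alone, -0.024 without WT mouse 1 and -0.069 without S155A mouse 2, and leaving out 1 mouse gave at most 0.096. Col16a1 (-0.17) was at 0.057 and 0.061 without WT mouse 3 and 4. Mmp14 (0.045) was at -0.0026 and -0.016 without WT mouse 3 and S155A mouse 1. Tgfb1 (0.14) was at -0.0036 without WT mouse 1 and at most at 0.29. Serpinh1 (-0.020, lowest -0.29 without S155A mouse 3) was at 0.33 without WT mouse 2, at 0.13, 0.050 and 0.0073 without S155A mouse 1, 2 and 4, and at 0.050 without both WT mouse 2 and S155A mouse 3, an alternative chosen after seeing the data because these libraries stood apart in acinar and lymphocyte markers. That alternative left Col4a5 and Col4a3 at an unadjusted p under 0.05.

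Whether the replicate numbers pair the mice is not settled by the correlations of their deviations from the genotype means. Same-numbered mice correlated at 0.056, 0.17, -0.11 and 0.13, and differently numbered mice at -0.19 to 0.14. With a replicate block, 2 collagens (Col4a5 and Col5a1) were at an unadjusted p under 0.05 and 0 at an adjusted p under 0.05. Depth limits the collagens below about 1 CPM. The self-test called only 5 of 50 genes changed 1.5-fold, so that differences of the size of the class medians could pass unseen in 4 against 4 mice.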
